A study of Mus musculus with 12 samples.

Results

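The proteasome genes were followed in mouse cells resembling primordial germ cells (PGCLCs), across 4 groups of cultures. They are the protein-coding genes of GENCODE M21 whose symbol begins with Psm, a letter from a to g and a digit. There are 50 of them among 21897 protein-coding genes with a matched transcript, and 49 had enough counts to be tested. The symbol set which genes belong to the family, but the family was chosen with earlier results of these data known. They comprise 7 alpha and 7 beta subunits of the core, 6 ATPase and 11 non-ATPase subunits of the regulatory cap, 3 immunoproteasome subunits, 2 tissue-specific core subunits, 7 assembly factors, 5 activator genes, the inhibitor Psmf1, and Psmc3ip, which carries a proteasome-like symbol but encodes a meiotic recombination factor.

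The cells were E14TG2a mouse embryonic stem cells, an established line, kept with LIF, vitamin C and inhibitors of Gsk3 and MEK. They were first primed to epiblast-like cells and then induced to PGCLCs, as floating aggregates kept 4 days in LIF, EGF, SCF, BMP8 and BMP4. TKO cells were primed for 40, 48 or 96 h (TKO_40h, TKO_48h and TKO_96h), and WT cells for 40 h (WT_40h), with 3 libraries in each group. TKO is known from the study as a triple knockout of the DNA methyltransferases Dnmt1, Dnmt3a and Dnmt3b. All groups share the parental line, the stem cell medium and the induction. The titles do not name separate clones, so the genotype and a difference between lines cannot be told apart. The labels call the replicates biological and do not say how far apart the cultures were kept. Whether the RNA is from whole aggregates or from a sorted fraction is not stated in them. In such bulk RNA, fewer cells of a type and less RNA per cell cannot be told apart.

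The proteasome is the protease that degrades proteins tagged with ubiquitin. Its core is a barrel of stacked alpha and beta rings with the proteolytic sites inside, and a cap with an ATPase ring unfolds substrates and feeds them in. In immune cells and under interferon the catalytic beta subunits can be exchanged for immunoproteasome forms, and germ cells of the testis use their own alpha subunit, Psma8. Chaperones build the rings, and the activators can take the place of the cap.

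Library totals ran from 6570180 to 9114128 estimated counts, and the proteasome genes held 0.405 to 0.6% of the counts in matched genes. Replicates correlated at 0.916 to 0.948 in log2 CPM, which are counts set relative to the TMM-scaled library size. TKO_48h replicate 1 had the fewest genes with 10 or more counts (13562, against 14482 to 15459 in the other 11) and the largest share in its 10 most abundant genes, 14.59%. Dnmt1 had 64.9 to 152 CPM in the 9 TKO libraries, against 426 to 450 CPM in WT_40h. Dnmt3a had 25.4 to 73.1 CPM in TKO libraries, against 358 to 436 CPM in WT_40h, and Dnmt3b had 13.4 to 55.4 CPM, against 157 to 215 CPM. RNA of all 3 targeted genes was thus lower in every TKO library. Germ cell markers (10 genes, among them Pou5f1, Dppa3 and Prdm1) summed to 974 to 1450 CPM and all were detected in all groups. The 8 blood and macrophage markers summed to 16.2 to 26.8 CPM. Of these, Lyz2 and Tyrobp were at 0 in all groups, while 5 or 6 had 10 or more counts over each group.

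Levels of the genes are first compared per length, as the deposited TPM (transcript abundance scaled by length and depth) summed per gene and averaged over the 12 libraries. The constitutive subunits formed a narrow band. Leaving out Psmc2, 30 of them had a median of 55.2 TPM, with Psma2 lowest at 34.7 TPM and Psmb6 highest at 130 TPM. The core alpha subunits had a median of 52.7 TPM and the core beta subunits 48.4 TPM. The cap ATPases, here with Psmc2 included, had 56.4 TPM and the other cap subunits 57 TPM. Core and cap RNA were thus at similar levels, and the order of the 30 subunits was alike in all groups, with Spearman's rho of 0.88 to 0.94 between group means (a description over 30 genes that share libraries). Psma4 at 108 TPM, Psmd4 at 113 TPM and Psmc1 at 93.1 TPM headed the other classes.

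Outside this band, the assembly factors had a median of 13.5 TPM, between 2.66 TPM for Psmd10 and 22.9 TPM for Psmg1. These chaperones are not part of the finished particle. The activator genes had a median of 39.2 TPM. Psme1 at 45.5 TPM led them and, with Psme3 at 44.1 TPM and Psme4 at 39.2 TPM, lay within the band. Psme2 lay below the band at 21.2 TPM, as did Psmf1, an inhibitor of the core, at 9.13 TPM. The immunoproteasome genes had the lowest median of the classes, 1.11 TPM, with 0.911 TPM for Psmb9, 1.11 TPM for Psmb8 and 8.78 TPM for Psmb10. Psma8 was at 11.9 TPM and Psmb11, known from the thymus, at 0.964 TPM. Psme2b, a copy of the activator gene Psme2, was the lowest of the 50 genes at 0.677 TPM.

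**Figure D1:**
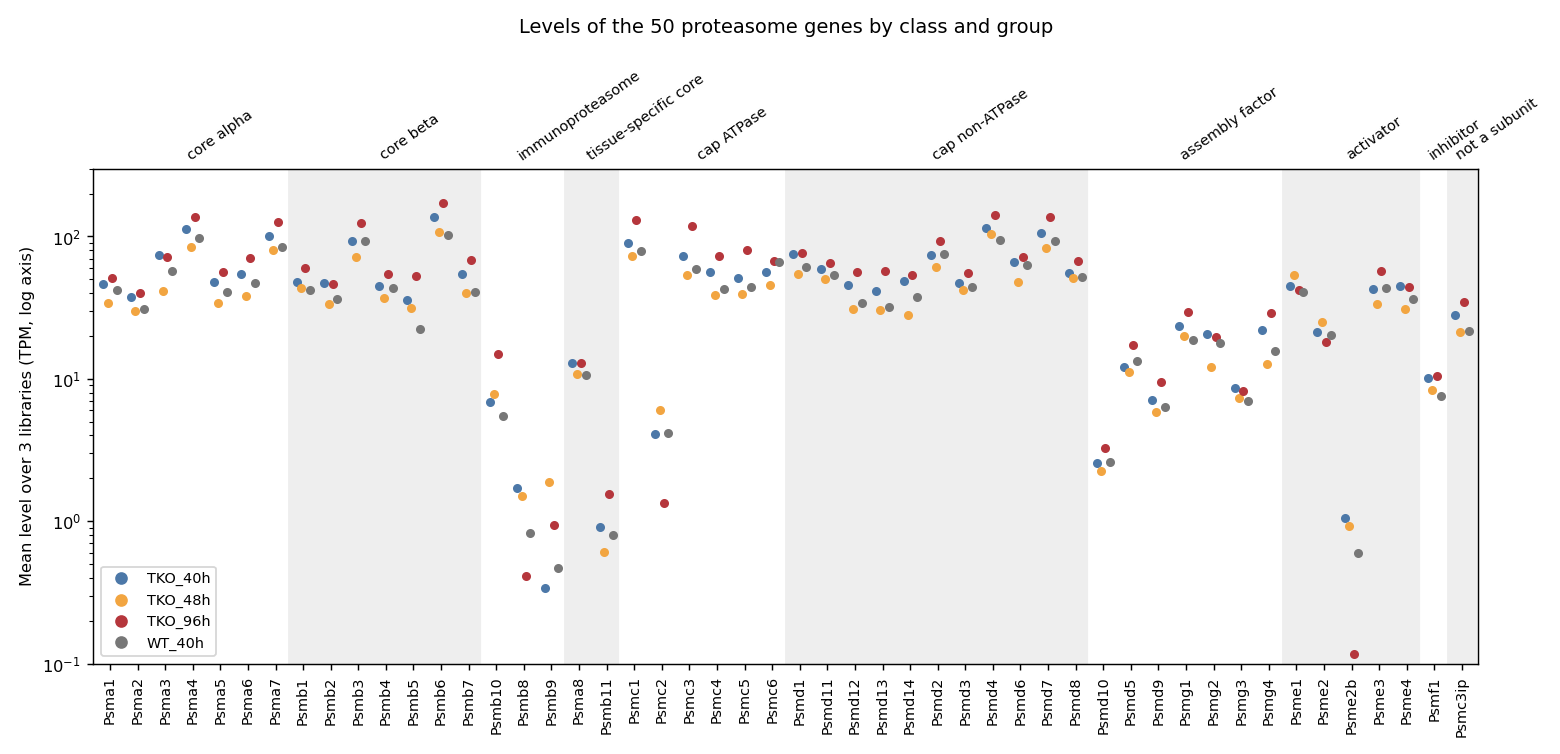
Mean TPM of 3 libraries per group (log axis) for each of the 50 proteasome genes, grouped by class. Constitutive core and cap subunits lie in one band around a median of 55.2 TPM, with assembly factors, immunoproteasome genes and Psmc2 below it.

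Psmc2, an ATPase of the cap, stood at 3.92 TPM, far below its 5 partners in the ring, which the particle needs in equal numbers. Its coding transcript Psmc2-201 held 162 counts in TKO_40h replicate 3, 318 in TKO_48h replicate 1 and 161 in WT_40h replicate 3, and 0.456 to 1.11 counts in the other 9 libraries. The retained-intron transcript Psmc2-202 held 26.5 to 97.2 counts in all 12. The level of Psmc2 in these tables is therefore uncertain, and what sets it was not tested. Shared sequence makes some other counts uncertain too. Of all 31-base words in the transcripts of Psmb5, 65.7% also occur in another gene, mostly Gm3375, and the share was 58.7% for Psma5, 33.5% for Psme2, 32.2% for Psmc1 and 31.6% for Psmd2. It was 5.9% for Psmc3, and no word of Psmc5, Psmd7 or Psme3 was shared.

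Promoter sequences were looked up because many of these genes are known to be raised together by the transcription factor Nfe2l1 and some by interferon. RefSeq windows on GRCm38.p6, from 250 bases before to 50 bases after the start, were matched for 42 of the 50 genes. Psma8, Psmb1, Psmb2, Psmb7, Psmc3, Psmd3, Psmd7 and Psmg2 had no matched window and were not searched. Each window was searched on both strands for the antioxidant response element TGACNNNGC that Nfe2l1 and Nfe2l2 bind, for the CCAAT box, and for the interferon response motif, which is GAAA, any 2 bases and GAAA again. The windows below are those of Psmc5, with the highest fold change of the called core and cap genes in TKO_96h against TKO_40h and none of the motifs, of Psmb5 and Psmd12, with an antioxidant response element, and of Psme1, with an interferon response motif. They are shown 5′ to 3′ on the strand of the gene with motif matches in capitals, and no window shown holds more than 1 match.
Psmc5 (chr11:106255935-106256234, plus strand): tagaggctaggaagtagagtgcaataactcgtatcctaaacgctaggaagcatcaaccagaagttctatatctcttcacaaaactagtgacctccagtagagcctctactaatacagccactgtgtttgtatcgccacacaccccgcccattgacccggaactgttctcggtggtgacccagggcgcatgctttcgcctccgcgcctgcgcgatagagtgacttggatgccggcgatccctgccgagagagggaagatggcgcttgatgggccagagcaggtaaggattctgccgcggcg
Psmb5 (chr14:54617946-54618245, minus strand): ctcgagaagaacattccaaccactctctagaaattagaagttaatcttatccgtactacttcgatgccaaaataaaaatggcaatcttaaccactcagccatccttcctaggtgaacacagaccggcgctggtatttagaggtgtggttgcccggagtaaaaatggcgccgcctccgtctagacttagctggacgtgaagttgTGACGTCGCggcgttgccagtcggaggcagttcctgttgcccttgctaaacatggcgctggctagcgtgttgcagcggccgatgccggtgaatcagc
Psmd12 (chr11:107479278-107479577, plus strand): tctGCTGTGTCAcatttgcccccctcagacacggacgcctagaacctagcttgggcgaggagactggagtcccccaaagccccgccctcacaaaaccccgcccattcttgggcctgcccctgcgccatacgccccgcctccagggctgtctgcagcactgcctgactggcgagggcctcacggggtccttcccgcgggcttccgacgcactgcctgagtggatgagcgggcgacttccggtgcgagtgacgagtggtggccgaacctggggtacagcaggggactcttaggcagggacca
Psme1 (chr14:55578244-55578543, plus strand): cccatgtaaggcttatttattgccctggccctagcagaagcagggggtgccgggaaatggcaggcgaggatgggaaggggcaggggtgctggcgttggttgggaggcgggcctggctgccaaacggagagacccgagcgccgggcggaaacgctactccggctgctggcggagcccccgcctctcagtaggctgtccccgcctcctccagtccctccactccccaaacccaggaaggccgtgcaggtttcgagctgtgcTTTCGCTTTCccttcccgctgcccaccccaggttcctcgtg

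TGACNNNGC was found in 6 of the 42 proteasome genes (14.3%), against 14% of all 27025 genes with a window. The 6 were Psmb5, Psmb6, Psmc6, Psmd9, Psmd12 and Psme4. CCAAT was found in 15 of 42 (35.7%), against 41.1% of all genes. The interferon response motif was found in 5 of 42 (11.9%), against 3.99% of all genes, and the 5 were Psmb3, Psmd4, Psmd9, Psme1 and Psmg4. The share with an antioxidant response element was thus close to that among all genes, and the share with a CCAAT box was lower. A match describes letters in a window and is no evidence of binding.

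Between groups, RNA of several constitutive subunits was higher in TKO_96h than in TKO_40h or TKO_48h, while the interferon-inducible activator genes Psme1 and Psme2 were lower in TKO_96h than in TKO_48h. The sizes were moderate, from 1.3-fold to 1.72-fold for the genes called higher. The comparisons share groups and are not independent of each other. A gene is called where the adjusted p of edgeR's quasi-likelihood test (Benjamini-Hochberg over 16178 genes) is below 0.05.

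In TKO_96h against TKO_40h, 8 of the 49 genes tested were called higher (16.3%), against 4.94% of all genes tested and 8.74% of the genes that average 20 CPM or more. No proteasome gene was called lower, against 7.2% of all genes and 10.5% of those more abundant ones, and 22 of 49 were at an unadjusted p under 0.05. The median log2 fold change was 0.30 over the 49 genes, against 0.000 over all genes, and 43 of 49 estimates were above 0. In 20 of 49 genes all 3 TKO_96h libraries lay above all 3 TKO_40h libraries, against 15.2% of all genes. DESeq2 called 9 higher.

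The 8 called genes were Psmc5, Psmc3, Psmc1, Psmd13, Psmd7, Psme3, Psmb5 and Psmc3ip. By role, 3 of 6 cap ATPases, 2 of 11 other cap subunits, 1 of 14 core subunits and 1 of 4 activator genes tested were among them. None of the 3 immunoproteasome genes and none of the 7 assembly factors was called, although the assembly factors had a median log2 fold change of 0.35. The count fell to 4, 3 and 2 without TKO_40h replicates 1, 2 and 3, and to 3 without TKO_96h replicate 1. Psmc3 and Psmc5 were called in each of these. Psmd7, Psmd13, Psme3, Psmb5 and Psmc3ip were no longer called without TKO_40h replicate 2 or 3 or TKO_96h replicate 1, and Psmc1 without TKO_40h replicate 3. All but Psmd13 of those 5 were also lost without TKO_40h replicate 1, Psmd13, Psme3 and Psmc3ip without TKO_96h replicate 2, and Psmb5 without TKO_96h replicate 3. When effective transcript lengths entered the fit as an offset, 3 genes were called, Psmc1, Psmc3 and Psmc5.

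In TKO_96h against TKO_48h, 15 of 49 genes were called higher (30.6%), against 8.82% of all genes tested and 15.7% of those that average 20 CPM or more. Psme1 and Psme2 were called lower (4.08%), against 10.7% of all genes and 13.8% of the more abundant ones. The median log2 fold change was 0.33, against 0.012 over all genes. The higher genes included 13 of the 31 constitutive subunits, among them 5 of 14 of the core and 8 of 17 of the cap, with Psme3 and Psmc3ip. Non-overlapping replicates were found in 16 of 49 genes with TKO_96h higher, against 15.6% of all genes, and in 4 with TKO_96h lower, against 17.1%. The total of 17 calls fell to 9 without TKO_96h replicate 1, to 11 without TKO_48h replicate 3, and to 9 with the effective length offset. Psmc4, Psmb7 and Psmc3ip were no longer called without TKO_48h replicate 2 or 3 or TKO_96h replicate 1. Psmd14 was lost without TKO_48h replicate 2 or TKO_96h replicate 1 or 2, Psmd7 without TKO_96h replicate 1, Psmd13 without TKO_48h replicate 3, and Psmc3ip also without TKO_48h replicate 1 or TKO_96h replicate 2.

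In TKO_48h against TKO_40h, Psme1 was the single gene called, and it was higher (2.04% of 49, against 2.57% of all genes tested and 3.9% of those averaging 20 CPM or more). None was called lower, against 2.92% and 5.21%. The median log2 fold change was -0.04. In TKO_40h against WT_40h no gene was called, with 7 at an unadjusted p under 0.05 and 1 call by DESeq2 (Psmb5), while edgeR called 1.62% of all genes higher and 1.48% lower, and 2.55% and 2.46% of those averaging 20 CPM or more. There the median log2 fold change was 0.14, against -0.001 over all genes, with 40 of 49 estimates above 0. In 15 of 49 genes the TKO_40h libraries lay above the WT_40h libraries, against 13.1% of all genes. Most estimates in this pair were thus above 0, but no single gene passed the test.

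**Figure D2:**
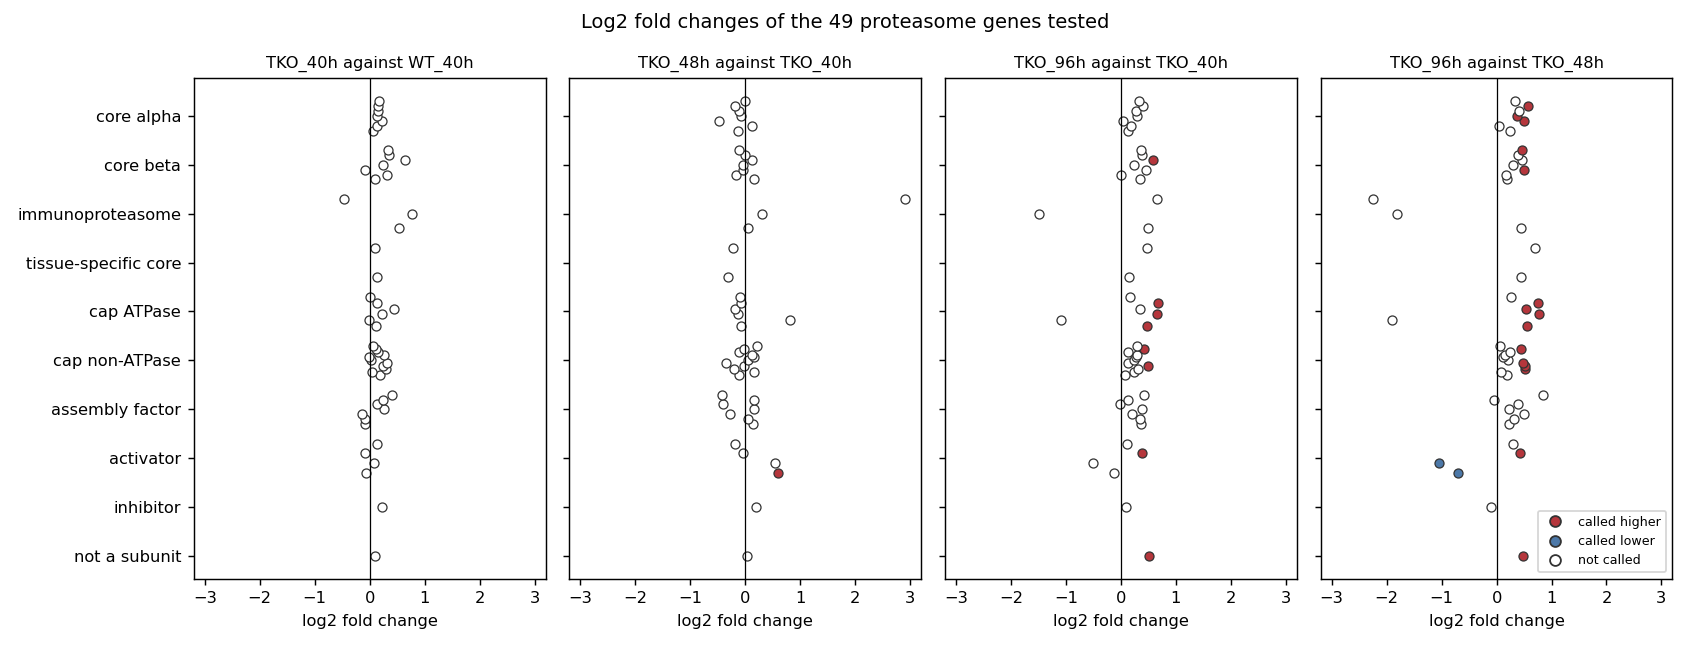
Log2 fold change of each of the 49 tested proteasome genes (points, offset vertically within a class) in 4 comparisons, with filled points for genes called by edgeR. The points of core and cap lie mostly right of 0 in both comparisons of TKO_96h, and Psme1 and Psme2 lie left of 0 against TKO_48h.

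The position of single libraries was read from the 30 constitutive subunits, as the median over subunits of log2(CPM + 0.5) minus its WT_40h mean. These medians were 0.21, 0.18 and 0.16 in TKO_40h, 0.32, -0.15 and 0.12 in TKO_48h, 0.74, 0.30 and 0.37 in TKO_96h, and 0.03, -0.03 and 0.02 in WT_40h. TKO_96h replicate 1 was thus highest, and the TKO_48h libraries spread most widely, with TKO_48h replicate 1 overlapping the TKO_96h range. In TKO_96h 30, 28 and 28 of the 30 subunits lay above the WT_40h mean, and in TKO_48h replicate 2 only 7 did. Without TKO_48h replicate 1 and TKO_96h replicate 1, a setting chosen after seeing the data, edgeR called 8 genes higher and 1 lower in TKO_96h against TKO_40h, and 14 higher and 2 lower in TKO_96h against TKO_48h.

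**Figure D3:**
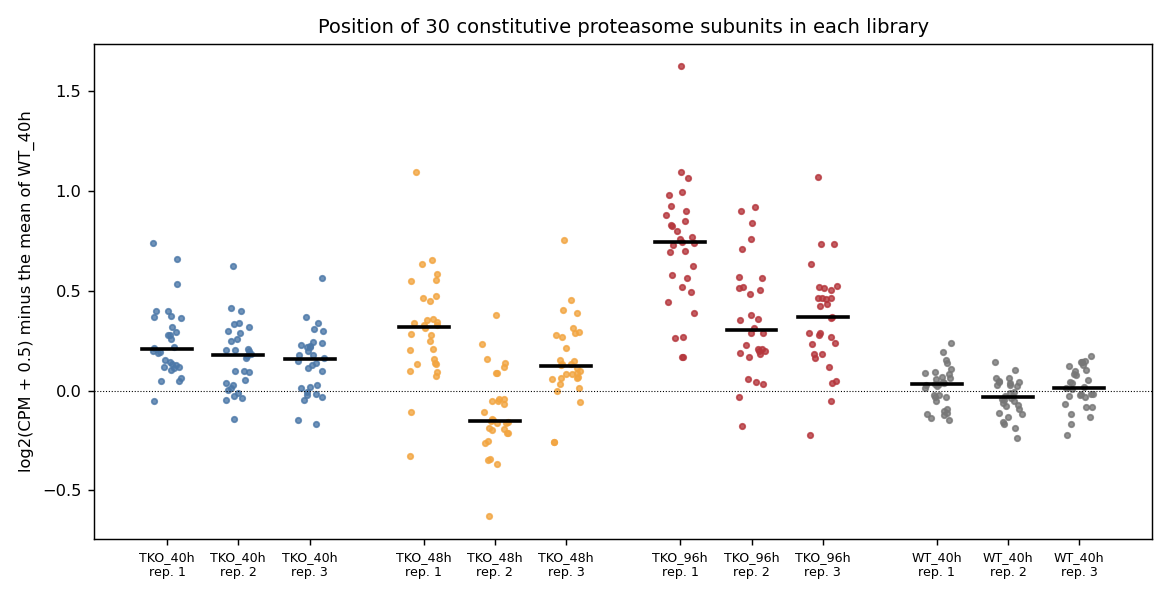
Position of 30 constitutive subunits (points) and their median (bar) in each of the 12 libraries, as log2(CPM + 0.5) minus the mean of WT_40h. TKO_96h replicate 1 has a median of 0.74, and TKO_48h replicate 2 is below 0 at -0.15.

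Among the cap ATPases, which unfold the substrate, Psmc3 and Psmc5 showed the clearest difference. Psmc3 (chromosome 2, 91054009 to 91066369, GRCm38, plus strand) had 153, 168 and 157 CPM in TKO_40h, 167, 122 and 147 in TKO_48h, 269, 255 and 225 in TKO_96h, and 154, 137 and 116 in WT_40h. All 3 TKO_96h libraries lay above the other 9. Its log2 fold change was 0.65 (SE 0.13, edgeR adjusted p = 0.0018) in TKO_96h against TKO_40h and 0.78 (SE 0.13, adjusted p = 0.00022) against TKO_48h. Psmc5 (chromosome 11, 106256154 to 106263120, plus strand) had 103, 82.7 and 95.3 CPM in TKO_40h, 93.1, 82.5 and 92 in TKO_48h, 178, 139 and 132 in TKO_96h, and 79, 82.5 and 94 in WT_40h. The TKO_96h libraries again lay above all others, with log2 fold changes of 0.68 (SE 0.13, edgeR adjusted p = 0.0014) against TKO_40h and 0.75 (SE 0.13, adjusted p = 0.00036) against TKO_48h.

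Psmc1 had 148, 136 and 129 CPM in TKO_40h, 140, 112 and 141 in TKO_48h, 213, 189 and 176 in TKO_96h, and 120, 124 and 139 in WT_40h. It too was higher in every TKO_96h library than in any other, by a log2 fold change of 0.48 (SE 0.12, edgeR adjusted p = 0.0095) against TKO_40h and 0.56 (SE 0.12, adjusted p = 0.0022) against TKO_48h. Psmc4 was called against TKO_48h alone, with means of 140 CPM in TKO_96h and 97.6 CPM in TKO_48h (log2 fold change 0.53, edgeR adjusted p = 0.017). Psmc6 was not called, with a log2 fold change of 0.17 in TKO_96h against TKO_40h and 0.27 against TKO_48h. Psmc2 ranged from 4.88 to 59.3 CPM over the libraries and was not called in any comparison. The members of the one ATPase ring thus did not all pass the test, although the differences between them were not tested.

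Of the other cap subunits, Psmd7 and Psmd13 were called in both comparisons of TKO_96h. Psmd7, a structural partner of the deubiquitinase Psmd14 in the lid of the cap, had 237, 218 and 244 CPM in TKO_40h, 249, 208 and 226 in TKO_48h, 365, 281 and 290 in TKO_96h, and 226, 192 and 231 in WT_40h. Every TKO_96h library lay above every other, by a log2 fold change of 0.42 (SE 0.12, edgeR adjusted p = 0.022) against TKO_40h and 0.45 (SE 0.12, adjusted p = 0.0095) against TKO_48h. Psmd13, another lid subunit, had 80, 73.6 and 74.7 CPM in TKO_40h, 87.6, 70.6 and 66.9 in TKO_48h, 116, 115 and 91.1 in TKO_96h, and 61.9, 60.1 and 70.7 in WT_40h. The groups did not overlap there either, and the log2 fold change was 0.50 (SE 0.13, edgeR adjusted p = 0.015) against TKO_40h and 0.52 (SE 0.13, adjusted p = 0.0079) against TKO_48h.

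Psmd12, also of the lid, had 125, 112 and 110 CPM in TKO_40h, 109, 90.8 and 101 in TKO_48h, 168, 132 and 130 in TKO_96h, and 95.2, 85.8 and 103 in WT_40h. All TKO_96h libraries lay above all others. It was called in TKO_96h against TKO_48h (log2 fold change 0.52, SE 0.12, edgeR adjusted p = 0.0049), and its 0.31 against TKO_40h was not called (adjusted p = 0.1). Psmd14, which cuts ubiquitin chains from substrates, averaged 91.2 CPM in TKO_96h and 65.5 CPM in TKO_48h (log2 fold change 0.48, edgeR adjusted p = 0.013). The largest subunits, Psmd1 and Psmd2, are only a part of the base of the cap. They were at 269 to 360 CPM and 270 to 396 CPM and were not called. Their log2 fold changes were 0.07 and 0.24 in TKO_96h against TKO_40h. The ubiquitin receptor Psmd4, the highest of the class per length, had 210, 195 and 179 CPM in TKO_40h, 227, 191 and 223 in TKO_48h, 251, 233 and 233 in TKO_96h, and 166, 169 and 154 in WT_40h. TKO_96h again lay above all others, but no comparison passed the test, with a log2 fold change of 0.30 in TKO_96h against TKO_40h (edgeR adjusted p = 0.066).

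In the core, the 3 catalytic beta subunits are Psmb5 (chymotrypsin-like), Psmb6 (caspase-like) and Psmb7 (trypsin-like). Psmb5 (chromosome 14, 54614119 to 54618022, minus strand) had 42.3, 38.9 and 37.4 CPM in TKO_40h, 54.3, 32.9 and 42.8 in TKO_48h, 78.5, 47.3 and 53.3 in TKO_96h, and 23, 24.7 and 27.9 in WT_40h. It was lowest in WT_40h, where all 3 libraries lay below all 9 TKO libraries, and TKO_96h replicate 1 stood highest. The log2 fold change was 0.59 in TKO_96h against TKO_40h (SE 0.19, edgeR adjusted p = 0.049) and 0.65 in TKO_40h against WT_40h (SE 0.20, adjusted p = 0.082, not called). Psmb5 has an antioxidant response element in its window, as does Psmb6, and shares most of its sequence words with Gm3375.

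Psmb6 had 149, 136 and 111 CPM in TKO_40h, 162, 112 and 119 in TKO_48h, 220, 147 and 148 in TKO_96h, and 109, 90.2 and 110 in WT_40h, and TKO_96h overlapped both other TKO groups. Its log2 fold change of 0.38 (SE 0.16) in TKO_96h against TKO_40h was not called (edgeR adjusted p = 0.15). Psmb7 had 89.7, 87.3 and 85.3 CPM in TKO_40h, 102, 73.5 and 66.6 in TKO_48h, 137, 103 and 95.9 in TKO_96h, and 72.1, 65.7 and 70.2 in WT_40h. It was called against TKO_48h (log2 fold change 0.47, SE 0.15, edgeR adjusted p = 0.032), although TKO_48h replicate 1 lay within the TKO_96h range. The catalytic genes thus had estimates of similar size, of which the calls fell on different ones.

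Among the structural subunits of the core, the alpha subunits Psma3, Psma4 and Psma6 and the beta subunit Psmb3 were called higher in TKO_96h against TKO_48h, with log2 fold changes of 0.49, 0.38, 0.57 and 0.49. All 4 calls were lost without TKO_96h replicate 1 and with only the 6 libraries compared in the fit, and those of Psma3, Psma4 and Psmb3 also without TKO_48h replicate 3 and with the effective length offset. Without TKO_48h replicate 2 the calls of Psma4, Psma6 and Psmb3 were lost, without TKO_48h replicate 1 that of Psma3, without TKO_96h replicate 2 that of Psma4 and without TKO_96h replicate 3 that of Psmb3. The call of Psmb3, at an edgeR adjusted p of 0.05 after rounding, was also lost with RLE size factors and with a robust fit. None of the 7 alpha subunits was called against TKO_40h, where 3 were at an unadjusted p under 0.05 and their median log2 fold change was 0.28. Psma4, the most abundant alpha subunit, had 184, 166 and 175 CPM in TKO_40h, 178, 143 and 175 in TKO_48h, 260, 206 and 182 in TKO_96h, and 165, 154 and 161 in WT_40h, with TKO_96h replicate 1 highest. Psma2 was the lowest alpha subunit in TPM, though not in CPM. It had 104, 104 and 91.5 CPM in TKO_40h and 136, 81.8 and 110 in TKO_48h. In TKO_96h it had 151, 94.5 and 93.8 CPM, and in WT_40h 99.7, 92.6 and 80.8. Its groups overlapped.

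**Figure D4:**
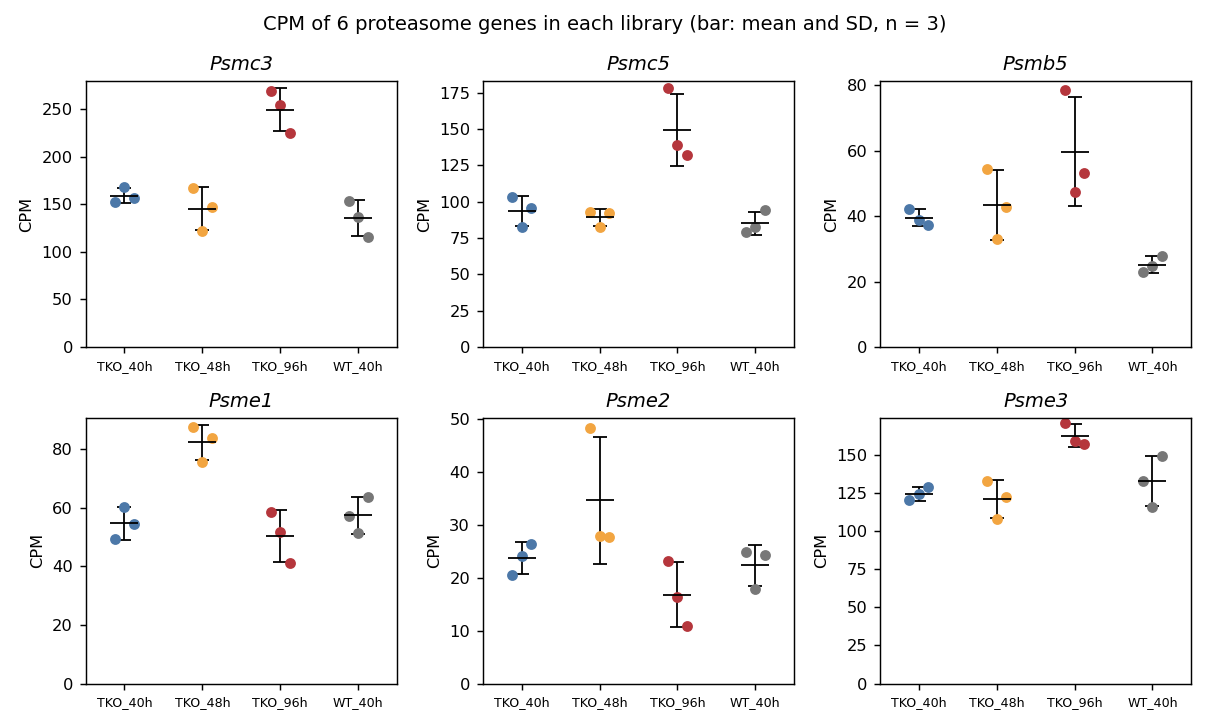
CPM of Psmc3, Psmc5, Psmb5, Psme1, Psme2 and Psme3 in each library (points) with the group mean and SD (bars, n = 3). Psmc3, Psmc5 and Psme3 are highest in the 3 TKO_96h libraries, Psme1 is highest in the 3 TKO_48h libraries, and Psmb5 is lowest in WT_40h.

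The immunoproteasome genes were sparse. Psmb8, which replaces Psmb5, had 2.9, 0.399 and 3.96 CPM in TKO_40h, 3.44, 1.6 and 3.98 in TKO_48h, 1.21, 0.28 and 1.06 in TKO_96h, and 1, 1.47 and 1.8 in WT_40h. Psmb9, which replaces Psmb6, had 0.138, 0.665 and 0.233 CPM in TKO_40h, 1.89, 1.34 and 4.83 in TKO_48h, 0, 0.98 and 0.659 in TKO_96h, and 1, 0.267 and 0.138 in WT_40h. Their counts were 2 to 34 and 0 to 34 per library, so that differences of this size are not firmly measured at this depth.

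In TKO_96h both lay below TKO_48h in every library, with log2 fold changes of -1.81 (SE 0.84, edgeR adjusted p = 0.14) for Psmb8 and -2.25 (SE 1.10, adjusted p = 0.17) for Psmb9, neither of which was called. Psmb10, which replaces Psmb7, had 6.5, 5.85 and 4.89 CPM in TKO_40h, 8.76, 4.01 and 5.11 in TKO_48h, 11.6, 5.46 and 7.12 in TKO_96h, and 4.12, 3.2 and 4.56 in WT_40h, and its log2 fold changes from 0.05 to 0.53 were not called either. DESeq2 also called none of the 3 in any comparison. Psmb8 and Psmb9 are neighbours on chromosome 17, with 9956 bases between them.

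Set against their standard counterparts per length, the 3 immunoproteasome genes took 3.24 to 4.18% of the summed catalytic TPM in TKO_40h, 4.25 to 8.28% in TKO_48h, 4.86 to 5.73% in TKO_96h and 3.67 to 4.16% in WT_40h. The standard genes held the rest in every library. Psma8, the germ cell form of Psma7, had 21.2, 28.2 and 24.2 CPM in TKO_40h, 22.2, 17.7 and 19.6 in TKO_48h, 31.7, 20.7 and 28.9 in TKO_96h, and 20.7, 22 and 23.9 in WT_40h. It was detected in all libraries and took 7.56 to 17.1% of the TPM of Psma7 and Psma8 together, with both extremes in TKO_48h. No difference of Psma8 was called, and its largest log2 fold change was 0.45 (SE 0.20, edgeR adjusted p = 0.12) in TKO_96h against TKO_48h. Psmb11, which neighbours Psmb5 at 3410 bases, stayed at 1.99 to 10.8 CPM.

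**Figure D5:**
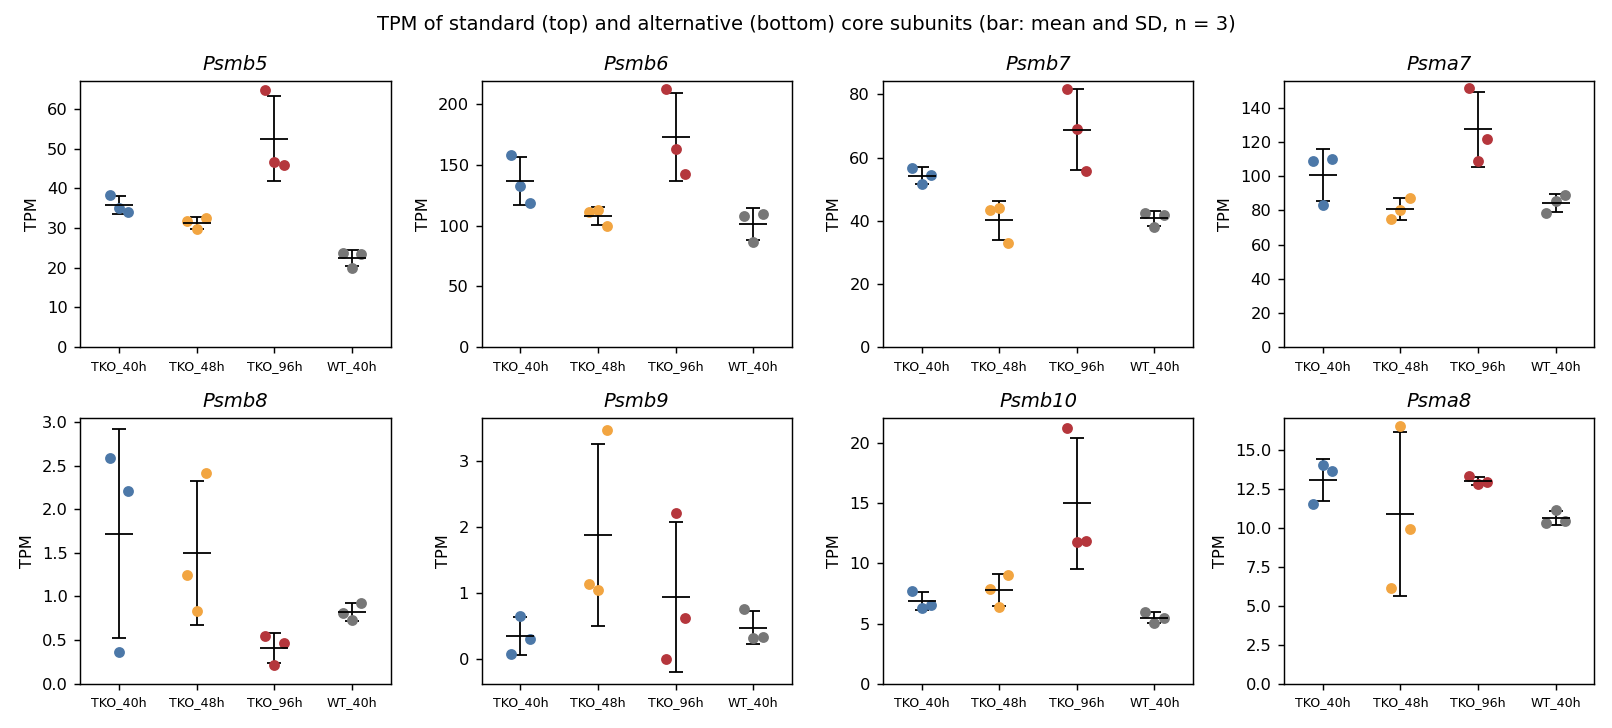
TPM of the standard core subunits Psmb5, Psmb6, Psmb7 and Psma7 (top) and of the forms that can replace them, Psmb8, Psmb9, Psmb10 and Psma8 (bottom), in each library with the group mean and SD (n = 3). Vertical axes differ between panels, and Psmb9 reaches 3.48 TPM at most where Psmb6 has at least 86.6 TPM.

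The activator genes went in different directions. Psme1 and Psme2 encode the mixed activator ring that interferon induces. Psme1 (chromosome 14, 55578123 to 55581529, plus strand) had 49.2, 60.3 and 54.5 CPM in TKO_40h, 87.6, 75.8 and 83.7 in TKO_48h, 58.6, 51.8 and 41.1 in TKO_96h, and 57.1, 51.4 and 63.8 in WT_40h. The TKO_48h libraries lay above all 9 others, with a log2 fold change of 0.59 in TKO_48h against TKO_40h (SE 0.14, edgeR adjusted p = 0.018) and -0.71 in TKO_96h against TKO_48h (SE 0.14, adjusted p = 0.0014). Psme1 in TKO_96h did not differ by the test from TKO_40h (log2 fold change -0.12, SE 0.14, adjusted p = 0.68). The call in TKO_48h against TKO_40h was lost without TKO_40h replicate 1 or 3, without TKO_48h replicate 1 or 3, and with the effective length offset. Its edgeR adjusted p ran from 0.004 to 0.17 over all alternatives.

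Psme2 (chromosome 14, 55587441 to 55591113, minus strand), 5911 bases from Psme1, had 20.5, 24.1 and 26.4 CPM in TKO_40h, 48.3, 27.8 and 27.6 in TKO_48h, 23.1, 16.4 and 10.8 in TKO_96h, and 24.9, 17.9 and 24.2 in WT_40h. TKO_48h replicate 1 stood highest, and all TKO_96h libraries lay below all TKO_48h libraries. The log2 fold change was -1.04 in TKO_96h against TKO_48h (SE 0.26, edgeR adjusted p = 0.0083) and 0.54 in TKO_48h against TKO_40h (SE 0.26, adjusted p = 0.26, not called). The call in TKO_96h against TKO_48h was lost without TKO_48h replicate 1 and with the effective length offset, and over all alternatives its log2 fold change ran from -1.35 to -0.72 and its edgeR adjusted p from 8.2e-05 to 0.093. The copy Psme2b had 0.276, 2.26 and 0.815 CPM in TKO_40h, 0.859, 1.47 and 1.28 in TKO_48h, 0.453, 0 and 0 in TKO_96h, and 0.445, 1.33 and 0.276 in WT_40h and was not tested. Since 78.4% of its words are shared, mostly with Psme2, reads of these copies cannot be separated with confidence.

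Psme3, which forms a nuclear activator that does not depend on interferon, had 120, 124 and 129 CPM in TKO_40h, 133, 108 and 122 in TKO_48h, 171, 159 and 157 in TKO_96h, and 133, 116 and 149 in WT_40h. Its TKO_96h libraries lay above all others, by a log2 fold change of 0.39 (SE 0.11, edgeR adjusted p = 0.029) against TKO_40h and 0.43 (SE 0.11, adjusted p = 0.011) against TKO_48h. Psme4, an activator known from chromatin of spermatids, averaged 338 CPM in TKO_96h and 277 CPM in TKO_48h, and its log2 fold change of 0.29 was not called (edgeR adjusted p = 0.059). Psmc3ip, the recombination factor caught by the symbol, had 37.7, 35.6 and 30 CPM in TKO_40h, 36.6, 34 and 35.2 in TKO_48h, 56, 50.9 and 40.5 in TKO_96h, and 36.4, 32.3 and 27.9 in WT_40h. Its TKO_96h libraries lay above all others, and it was called higher in TKO_96h against TKO_40h (log2 fold change 0.51, SE 0.16, edgeR adjusted p = 0.043) and against TKO_48h (0.48, SE 0.16, adjusted p = 0.043).

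The assembly factors gave no call in any comparison by edgeR, with at most 3 of 7 at an unadjusted p under 0.05, and 1 call by DESeq2 in TKO_96h against TKO_48h. Psmg1, which starts the alpha ring, had 35.5, 31.1 and 27.7 CPM in TKO_40h, 43.5, 24.3 and 37.6 in TKO_48h, 55.7, 33.3 and 33.9 in TKO_96h, and 25.6, 25.4 and 27.6 in WT_40h. Psmd10, a chaperone of the ATPase ring, had 4.42, 5.45 and 5.47 CPM in TKO_40h, 8.76, 4.81 and 3.41 in TKO_48h, 7.85, 6.02 and 5.8 in TKO_96h, and 6.57, 4.14 and 5.53 in WT_40h. Both overlapped between most groups. Psmg4, which helps place core subunits, had the largest log2 fold change of the class, 0.84 in TKO_96h against TKO_48h (SE 0.30, edgeR adjusted p = 0.051). The inhibitor gene Psmf1 was at 19.5 to 32 CPM and was not called.

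Genes around the proteasome were read from lists chosen with earlier results of these data known. Of 20 proteasome partners, 18 were in the files and tested, with 2 called higher and 1 lower in TKO_96h against TKO_40h and 5 higher in TKO_96h against TKO_48h. Of all genes tested, 4.94% were called higher and 7.2% lower in the first of these comparisons and 8.82% higher in the second, and of those averaging 20 CPM or more 8.74%, 10.5% and 15.7%. The counts against TKO_40h were thus near the background. The ubiquitin receptor Adrm1 averaged 155 CPM in TKO_96h, against 119 CPM in TKO_40h and 117 CPM in TKO_48h (log2 fold changes 0.38 and 0.40, edgeR adjusted p = 0.041 and 0.02). Uchl5, the deubiquitinase that Adrm1 holds, rose against TKO_48h by 0.58 (adjusted p = 0.0093), as did the shuttle factor Rad23b by 0.40 (adjusted p = 0.012). Ufd1, a cofactor of the segregase that extracts ubiquitinated proteins, was higher against TKO_40h by 0.55 and against TKO_48h by 0.51 (edgeR adjusted p = 0.049 for both). Akirin2, which brings proteasomes into the nucleus, fell against TKO_40h with a log2 fold change of -0.38 (adjusted p = 0.04). Median log2 fold changes of the list were 0.03 and 0.17.

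The regulators Nfe2l1 and Nfe2l2 were not called in any comparison. Nfe2l1 averaged 170 CPM in TKO_96h, against 160 CPM in TKO_40h and 179 CPM in TKO_48h. Of 15 regulators, 2 were called higher in TKO_96h against TKO_48h, the CCAAT-binding subunit Nfyc (log2 fold change 0.56, edgeR adjusted p = 0.0071) and Ddi2, the protease that activates Nfe2l1 (0.47, adjusted p = 0.0077). Maff and Bach1, repressors or partners at antioxidant response elements, were called lower there, with log2 fold changes of -1.46 (edgeR adjusted p = 0.0093) and -0.67 (adjusted p = 0.016). Both counts of 2 of 15 were near the background, since 8.82% of all genes were called higher and 10.7% lower in that comparison, and 15.7% and 13.8% of those averaging 20 CPM or more. Bach1 was also called lower in TKO_40h against WT_40h. Of 6 ubiquitin genes, Uba6 alone was called, lower in TKO_48h against TKO_40h (log2 fold change -0.53, edgeR adjusted p = 0.023). DESeq2 called 1 more of them, in TKO_40h against WT_40h.

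Of 20 genes of antigen processing and interferon response, 17 were tested. In TKO_96h against TKO_48h 8 were called lower and none higher, with a median log2 fold change of -0.76, against 10.7% of all genes called lower and 13.8% of those averaging 20 CPM or more. In TKO_96h against TKO_40h 4 were lower, with a median of -0.38, against 7.2% of all genes and 10.5% of the more abundant ones. Irf1, an interferon-induced transcription factor, averaged 17 CPM in TKO_96h, against 46.3 CPM in TKO_40h and 53.8 CPM in TKO_48h (edgeR adjusted p = 3.6e-06 and 4.2e-07). H2-K1, an antigen-presenting molecule, averaged 21 CPM in TKO_96h, against 51 CPM in TKO_40h and 59.7 CPM in TKO_48h (adjusted p = 0.00039 and 4.4e-05). The peptide loading genes Tapbp and Tap1 were lower against TKO_48h, with edgeR log2 fold changes of -0.82 (adjusted p = 0.0062) and -1.14 (adjusted p = 0.0094). Psme1 and Psme2 were lower in the same comparison. In TKO_48h against TKO_40h, where Psme1 was called higher, no gene of the list was called by edgeR, with 4 at an unadjusted p under 0.05 and 1 call by DESeq2. In TKO_40h against WT_40h H2-D1 and H2-K1 were called higher and Tap1 lower.

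Of the lists for other cell types, only the endoderm markers summed lower in every TKO_96h library than in all other libraries. The 6 endoderm markers summed to 5.32 to 7.91 CPM in TKO_96h, with Afp and Apoa1 at 0, against 17.1 to 20.2 CPM in TKO_40h and 17.2 to 25.7 CPM in TKO_48h. The 6 trophoblast markers summed to 21.9 to 26.4 CPM in TKO_96h, against 40 to 47.3 CPM in TKO_40h and 23 to 37.8 CPM in TKO_48h. In WT_40h the sums were 8.68 to 13.4 CPM for endoderm and 20.9 to 25.4 CPM for trophoblast markers. The trophoblast sums of TKO_96h thus overlapped those of TKO_48h and WT_40h. Of the 10 germ cell markers, Prdm1, Tfap2c and Dppa3 were called lower and Pou5f1 higher in TKO_96h against both other TKO groups. Dazl was called higher against TKO_48h alone (log2 fold change 0.71, edgeR adjusted p = 0.0015). Of all genes tested, 7.2% were called lower and 4.94% higher against TKO_40h, and 10.7% and 8.82% against TKO_48h. Among those averaging 20 CPM or more, the shares were 10.5% and 8.74%, and 13.8% and 15.7%. The part of the germ cell markers in the proteasome results was not tested. Blood and macrophage markers summed to 17.7 to 20.1 CPM in TKO_96h, against 16.6 to 23.2 CPM in TKO_40h and 16.2 to 21.4 CPM in TKO_48h. Endothelial markers summed to 79.5 to 92.1 CPM in TKO_96h, against 72.4 to 85.6 CPM in TKO_40h and 88.1 to 105 CPM in TKO_48h. Fibroblast markers summed to 31.4 to 45.7 CPM in TKO_96h, against 22.9 to 36.8 CPM in TKO_40h and 17.7 to 70.9 CPM in TKO_48h. WT_40h sums were 22.5 to 26.8 CPM for blood and macrophage, 73.2 to 93.6 CPM for endothelial and 28.7 to 37.1 CPM for fibroblast markers.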

How the data were processed

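Per the labels, total RNA was treated with DNase, and at least 10 ng went into each library (SMARTer Pico kit for stranded total RNA). The submitters' processing notes name Trim Galore 0.6.2, kallisto and GRCm38 (mm10). No kallisto version or transcript set is given in the sources used here. The authors deposited estimated counts (expected counts, not scaled) and TPM per transcript, scaled by depth and effective length, beside the transcript lengths.

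Of 119414 transcripts, 116728 (97.8%) were matched to GENCODE M21 by Ensembl ID without version. Estimated counts were summed per gene (35975 genes) and rounded, and deposited TPM were summed per gene. TPM carry no correction for composition, so levels between genes are given in TPM and differences between groups in CPM with TMM library sizes. filterByExpr (minimum count 10, minimum total 15) left 16178 genes. edgeR 4.0.16 was fitted on all 12 libraries with TMM (factors 0.927 to 1.063), 1 mean per group and a two-sided quasi-likelihood F-test; the common biological coefficient of variation was 0.241. Standard errors were derived as the size of the log2 fold change over the root of F. P-values set a difference between groups against the spread between replicate libraries, of which all groups share 1 estimate. They do not take account of a wider spread in a single group. Whether counting used strand is not stated, and library totals set the precision of sparse genes.

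The members, classes and lists were chosen with earlier results of these data known. Full values are given for called members, at most the 8 of smallest adjusted p in a comparison. They are also given for Psmb5 to Psmb10, Psme1, Psme2 and Psma8, and for the highest and lowest of each class in TPM. The exceptions are Psmc2, Psmb11 and Psmf1, which are given as ranges only. Other members named were chosen after their values were seen. Not all called genes of the lists are named. Comparisons were TKO_40h with WT_40h, TKO_48h with TKO_40h, and TKO_96h with each. Alternatives were DESeq2 1.42.0, RLE size factors, no filter, a replicate block, a robust fit, protein-coding genes only, an effective length offset, only the 6 libraries compared, and each library left out. Software was R 4.3.3, Python 3.11.15, numpy 2.4.6, pandas 2.3.3 and matplotlib 3.10.9.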

Additional observations from a re-analysis of the deposited data

How the results depend on the processing

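No fold change of a member changed sign under 21 other settings where it had been called. The number of members called was 8 in TKO_96h against TKO_40h and became 13 with no filter on low counts and 3 with an effective length offset. The 17 calls in TKO_96h against TKO_48h became 9 with the offset and 11 with only the 6 libraries compared. The single call in TKO_48h against TKO_40h became 2 with no filter, 0 with the offset, 2 with only the 6 libraries, and 2 without TKO_48h replicate 1 and TKO_96h replicate 1. In TKO_40h against WT_40h, 0 calls became 2 with no filter, 1 with DESeq2 and 3 with only the 6 libraries, and Psmb5 was among them each time. The offset also lowered the calls over all genes in TKO_96h against TKO_40h to 284 higher and 544 lower, from 800 and 1165. Leaving out 1 library gave 2 to 8 calls in TKO_96h against TKO_40h, 9 to 19 in TKO_96h against TKO_48h, 0 to 1 in TKO_48h against TKO_40h, and 0 in TKO_40h against WT_40h. The median log2 fold change of the members then ran from 0.17 to 0.35 and from 0.17 to 0.43 in the comparisons of TKO_96h with TKO_40h and with TKO_48h. Of the calls, 2 of 8 and 6 of 17 were kept in every such setting. Replicates with the same number did not deviate together (correlations of -0.058 to 0.048 over 18 pairs), and with a replicate block 9, 18, 1 and 0 members were called in TKO_96h against TKO_40h, TKO_96h against TKO_48h, TKO_48h against TKO_40h and TKO_40h against WT_40h. The cause of these changes was not tested. Depth limits Psmb8, Psmb9 and Psme2b most, with at most 34 counts per library for Psmb8 and Psmb9.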
